A study of Homo sapiens with 10 samples.

Results

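TCL1A and TCL1B are the paired genes of the T-cell leukemia 1 locus on human chromosome 14, whose small proteins bind the kinase AKT and raise its activity. They make up 2 of the 25275 gene symbols in the tables analysed here and were chosen by symbol, because earlier readings of these same data showed both to be present in one OCI-LY10 library and nearly absent from the others. The values of the OCI-LY10 contrast that chose them are therefore given as a description, with no test. The study used 2 established human lines, OCI-LY10 and TMD8, of diffuse large B-cell lymphoma of the activated B-cell-like subtype. In each line, cells carried a doxycycline-inducible short hairpin RNA (shRNA) and were given 20 ng/ml doxycycline for 2 days before RNA was taken. The OCI-LY10 libraries were 1 with STAT3 shRNA 10, 1 with STAT3 shRNA 16 and 1 with a control shRNA, so that the question of the comparison is which transcripts differ when the transcription factor STAT3 is depleted. All 3 carried an induced hairpin and had doxycycline, the control included, and no library without them was analysed here. For TMD8 the labels name the same 3 hairpins, but the 3 value columns of the TMD8 table bear no names, so they are given by position and no column is assigned to a hairpin. Another 4 samples, STAT3 ChIP-seq of both lines after 4 h with the JAK inhibitor AZD1480 or its solvent DMSO, are not analysed here.

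TCL1 proteins have no enzymatic activity of their own. They bind the pleckstrin homology domain of AKT, which receives its signal from phosphatidylinositol 3-kinase (PI3K) and phosphorylates substrates such as the FOXO transcription factors, GSK3 and TSC2, favouring survival and growth. In normal B cells TCL1A is known as a gene of naive and germinal centre cells that is silent in memory and plasma cells. Chromosome rearrangements that place the locus next to a T-cell receptor gene drive T-prolymphocytic leukemia, and a TCL1 transgene in mouse B cells gives a disease like chronic lymphocytic leukemia.

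The genes face each other: TCL1B lies on the plus strand and TCL1A on the minus strand, and each is read towards the other. The 250 bases before each gene start are shown because the results concern whether transcripts of these genes are present at all. They are from RefSeq, build GRCh38.p14, which is not the build hg19 named for the expression tables, at chr14:95714126-95714375 (minus strand) for TCL1A and chr14:95686176-95686425 (plus strand) for TCL1B. Both members matched. Each is printed 5′ to 3′ on the strand of its gene, and capitals mark matches to the motifs searched on both strands, namely the TATA box (TATAAA), the GC box bound by SP1 (GGGCGG, which reads CCGCCC on the other strand) and the STAT palindrome (TTCNNNGAA). No matches overlapped.
TCL1A: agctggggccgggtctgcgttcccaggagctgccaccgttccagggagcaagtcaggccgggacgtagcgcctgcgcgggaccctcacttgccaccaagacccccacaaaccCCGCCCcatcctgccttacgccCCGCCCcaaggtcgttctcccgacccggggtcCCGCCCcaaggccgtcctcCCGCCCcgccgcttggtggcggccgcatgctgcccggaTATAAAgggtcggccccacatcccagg
TCL1B: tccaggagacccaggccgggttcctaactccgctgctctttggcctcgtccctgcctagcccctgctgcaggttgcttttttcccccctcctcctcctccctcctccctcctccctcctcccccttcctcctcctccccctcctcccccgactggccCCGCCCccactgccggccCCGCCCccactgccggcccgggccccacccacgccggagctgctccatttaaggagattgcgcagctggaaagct
The TCL1A window held 1 TATAAA, starting 27 bases before the gene start, and 4 GC boxes. The TCL1B window held 2 GC boxes and no TATAAA. Neither window held a STAT palindrome, which says only that these letters are not in these bases. Among 35116 such windows of annotated genes, 10.7% held TATAAA, 42.6% a GC box and 6.57% a STAT palindrome. The G and C content was 71.6% for TCL1A and 69.6% for TCL1B, above the median window at 58% and below the 95th percentile at 78.4%.

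Levels are FPKM, fragment counts scaled by gene length and library size, and each line's table was normalized separately. Each hairpin has 1 library, so no condition has a replicate, and differences are set against the gap between the STAT3 shRNA libraries, which holds technical variation and hairpin-specific effects alike. Total read numbers are unknown, but relative depth can be read from the lowest values: taking shRNA 10 as 1, shRNA 16 was at 0.73 and the control at 1.52. Small RNA genes made up 57.9%, 58.2% and 49.1% of the FPKM sum in shRNA 10, shRNA 16 and control. A fact of the whole table bears on every OCI-LY10 value that follows. Across 23200 genes outside the small RNAs, log2(FPKM + 1) in the library labelled OCI-LY10 control correlated at r = 0.938 to 0.939 with the STAT3 shRNA libraries of its own line and at 0.975 to 0.985 with the TMD8 columns. The STAT3 shRNA libraries correlated at 0.997 with each other and at 0.920 to 0.928 with the TMD8 columns, and the TMD8 columns at 0.993 to 0.997 among themselves. These are descriptions across genes, which are not independent, and libraries of a table share their normalization. The library labelled control thus stood nearer to the other cell line than to its own, and whether this has a part in the difference between the OCI-LY10 libraries was not tested.

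STAT3, the gene targeted by the hairpins, had 11.1 FPKM with shRNA 10 and 10.6 FPKM with shRNA 16, against 16.5 FPKM with the control shRNA. The log2(FPKM + 1) differences were −0.53 and −0.60, short of the 2-fold threshold used below. Both were beyond the 95th percentile of the gap between the STAT3 shRNA libraries over all tested genes, 0.50. That gap is between libraries correlating at 0.997, closer than either was to the control. At 1.5-fold, which STAT3 did not reach with shRNA 10, 1920 of 11162 tested genes were lower and 2248 higher with both hairpins. Differences of about this size were therefore common in this contrast. In the TMD8 table STAT3 had 120 FPKM at position 1, 24.3 at position 2 and 22.5 at position 3.

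TCL1A had 0.0396 FPKM with STAT3 shRNA 10 and 0.108 FPKM with STAT3 shRNA 16, against 474 FPKM with the control shRNA. TCL1B had 0.0979 FPKM with shRNA 10 and 0.134 FPKM with shRNA 16, against 237 FPKM with the control shRNA. Both genes were near the floor of detection in both STAT3 shRNA libraries and among the abundant transcripts of the control library. Among 23200 genes outside the small RNAs, TCL1A ranked 14541 and 13283 with shRNA 10 and shRNA 16, against 159 in the control. TCL1B ranked 13352 and 12998 with shRNA 10 and shRNA 16, against 292 in the control. In bulk RNA, fewer cells that express a gene and less of its RNA per cell cannot be told apart.

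On the log2(FPKM + 1) scale, where the fold of a weakly expressed gene is compressed, TCL1A differed from control by −8.84 with shRNA 10 and −8.74 with shRNA 16. The differences of TCL1B were −7.76 and −7.71. How far these values go is set by the added 1 FPKM, since the STAT3 shRNA levels are below it. The STAT3 shRNA libraries differed from each other by 0.09 for TCL1A and 0.05 for TCL1B (shRNA 16 minus shRNA 10), a gap that the added 1 FPKM holds near 0 at such levels and that says nothing of how alike the hairpins were. Of 11162 tested genes, that is genes whose mean over the OCI-LY10 libraries reached 1 FPKM, 10.1% (1131) were at least 2-fold lower than control with both STAT3 shRNAs and 10.6% (1180) at least 2-fold higher. Both members passed that filter through the control library alone and were among the lower genes, as their choice on this contrast requires.

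The low values may rest on few reads. Scaled by relative depth, the TCL1A value with shRNA 16 was 2.00 times that with shRNA 10, and the TCL1B value was 1.00 times. Small whole ratios arise where values rest on few reads, but the number itself cannot be read from FPKM and no counting interval is given. The order of the STAT3 shRNA libraries, and of the genes within them, is therefore not resolved.

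**Figure D1:**
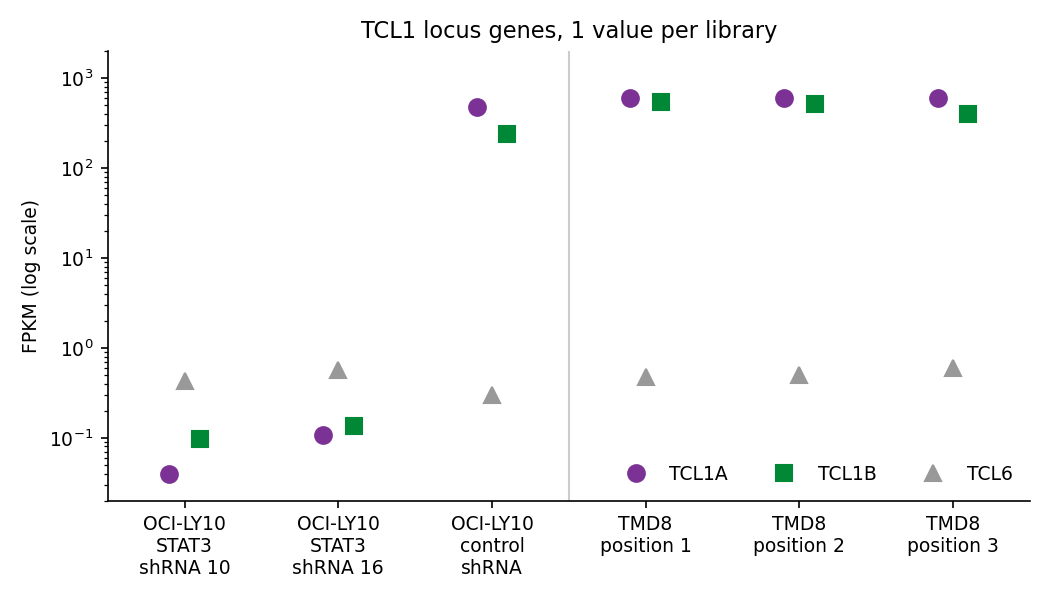
FPKM (log axis) of TCL1A, TCL1B and their neighbour TCL6 in the 3 OCI-LY10 libraries and at the 3 positions of the TMD8 table, 1 point per gene and library, without error bars because there are no replicates. TCL1A and TCL1B lie below 0.2 FPKM in both STAT3 shRNA libraries and at 237 FPKM or more in the other 4 columns, while TCL6 stays between 0.299 and 0.597 FPKM in all 6.

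In TMD8 both genes were abundant at every position. TCL1A had 600, 595 and 590 FPKM at positions 1, 2 and 3. TCL1B had 543, 509 and 400 FPKM at positions 1, 2 and 3. Since the labels place 2 STAT3 hairpins and 1 control among these samples, TCL1A and TCL1B were abundant in every TMD8 sample whatever the order of the columns. The highest TCL1A value was 1.02 times the lowest, and only 0.706% of 708 genes whose TMD8 mean reached 100 FPKM had a smaller log2 range than its 0.03. For TCL1B the highest value was 1.36 times the lowest, a log2 range of 0.44, and 80.2% of those genes had a smaller range, the median gene 0.27 and the 95th percentile 0.67.

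By level TCL1A was highest in the TMD8 columns, then in the OCI-LY10 control, and lowest in the OCI-LY10 STAT3 shRNA libraries. The TMD8 median was 1.25 times the OCI-LY10 control value for TCL1A and 2.14 times for TCL1B, across tables that were normalized separately. The balance between the members, which FPKM allows because it is per length, also differed. TCL1B was 0.905, 0.856 and 0.678 times TCL1A at TMD8 positions 1, 2 and 3, and 0.501 times TCL1A in the OCI-LY10 control. With shRNA 10 and shRNA 16 the ratios were 2.47 and 1.24, on values too low to read.

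Few genes were abundant in the control and nearly absent from both STAT3 shRNA libraries. Leaving out small RNA and chromosome Y genes, 158 genes had at least 5 FPKM in the control and at most 0.5 FPKM in both STAT3 shRNA libraries. TCL1A had the highest control level of these and TCL1B came next, followed by the intermediate filament gene VIM at 185 FPKM and the immune adaptor gene TYROBP at 76.3 FPKM. Of 291 genes at or above the TCL1B level in the control, TCL1A and TCL1B were the 2 at or below 0.5 FPKM in both STAT3 shRNA libraries, and 288 had at least 5 FPKM there. The TMD8 columns mostly divided as the control did: of the 158 genes, 102 had at least 5 FPKM at all 3 TMD8 positions and 1 had at most 0.5 FPKM at all 3. In the other direction, 105 genes had at least 5 FPKM in both STAT3 shRNA libraries and at most 0.5 FPKM in the control. Of these 105, none reached 5 FPKM at all 3 TMD8 positions (0 genes), and 93 were at or below 0.5 FPKM at all 3. These counts use the contrast on which the members were chosen.

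**Figure D2:**
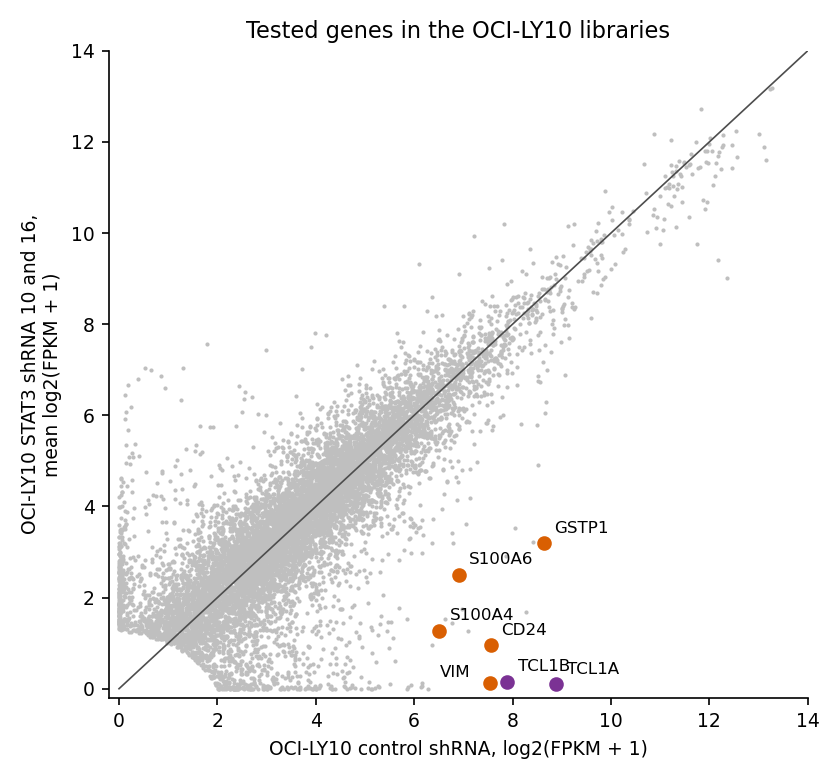
Each grey point is 1 of 10839 tested genes (small RNA and chromosome Y genes left out), with log2(FPKM + 1) in the OCI-LY10 control library on the x axis and the mean over the STAT3 shRNA libraries on the y axis, and the line marks equal levels. TCL1A and TCL1B (purple) lie at the lower right, at 8.89 and 7.90 on the x axis, beside the genes nearest to them in level over all columns (orange).

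Of the remaining family and locus genes, MTCP1 and CMC4 passed the filter, and neither was past the 2-fold threshold (0 of 2). With table-wide shares of 10.1% lower and 10.6% higher, 2 genes are too few to set them apart from other genes. MTCP1, the X-linked paralog whose protein also binds AKT, had 2.13 and 1.59 FPKM with shRNA 10 and shRNA 16, against 1.14 FPKM with control, and 0.687 to 0.822 FPKM in TMD8. CMC4, which overlaps MTCP1 and whose protein is mitochondrial, had 7.58 and 6.84 FPKM with shRNA 10 and shRNA 16, against 5.37 FPKM with control. Because these genes overlap, reads may have been divided between them, and their values are uncertain. TCL6, a non-coding gene next to TCL1B, did not pass the filter and had 0.425 and 0.561 FPKM with shRNA 10 and shRNA 16, against 0.299 FPKM with control. It stayed low in libraries where TCL1A and TCL1B were abundant.

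The nearest 5 genes of the table on each side of the pair gave a local context. Of these 10, 5 passed the filter, with 2 at least 2-fold lower with both STAT3 shRNAs and 0 higher, beside 10.1% and 10.6% of all tested genes, and the other 5 were under 1 FPKM in every column. GLRX5, a mitochondrial glutaredoxin of iron-sulfur cluster assembly, had 35.1 and 32.7 FPKM with shRNA 10 and shRNA 16, against 73.2 FPKM with control. SYNE3, a nuclear envelope protein gene, had 1.40 and 1.91 FPKM with shRNA 10 and shRNA 16, against 5.70 FPKM with control. Both of these TCL1B-side genes were lower with the STAT3 shRNAs, by less than TCL1A and TCL1B. ATG2B, an autophagy gene on the TCL1A side, had 1.55 and 1.43 FPKM with shRNA 10 and shRNA 16, against 2.51 FPKM with control. The non-coding SNHG10 had 2.63 and 3.19 FPKM with shRNA 10 and shRNA 16, against 3.88 FPKM with control, and the small RNA gene SCARNA13 had 3.13 and 7.88 against 7.19 FPKM. On the TCL1A side, C14orf132 was listed at 0 with shRNA 10 and had 0.00863 FPKM with shRNA 16, against 0.663 FPKM with control. TUNAR and BDKRB2 were below 0.05 FPKM in every column, and BDKRB1 was listed at 0 in all 6. None of the 10 neighbours combined at least 5 FPKM in the control with at most 0.5 FPKM in both STAT3 shRNA libraries (0 genes). The 5 under 1 FPKM in every column could not have met that rule. Over the whole table, small RNA and chromosome Y genes left out, 158 genes met it. The count among neighbours therefore does not show that the pattern is confined to the pair.

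**Figure D3:**
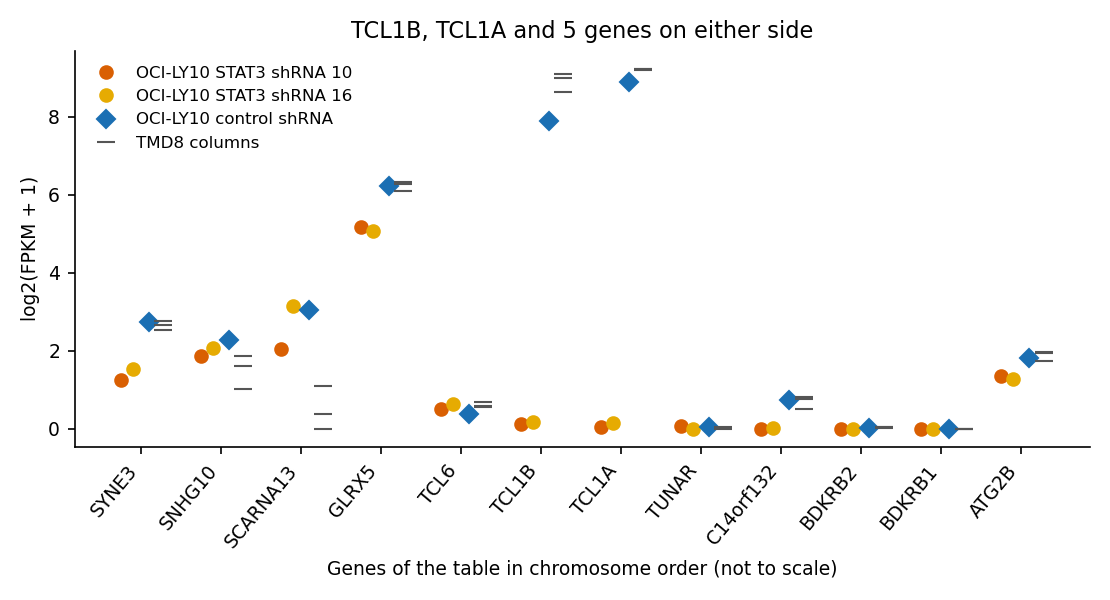
log2(FPKM + 1) of TCL1B, TCL1A and the 5 genes of the table on either side, in chromosome order and not to scale, with 1 mark per library. The pair stands out by the gap between its control and STAT3 shRNA marks, −7.76 and −7.71 for TCL1B and −8.84 and −8.74 for TCL1A, while GLRX5 differed by −1.04 and −1.14.

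AKT1, one of the kinases that TCL1 proteins bind, had 16.7 and 15.9 FPKM with shRNA 10 and shRNA 16, against 39.3 FPKM with control, and was past the 2-fold threshold. AKT2 was near even, with 25.3 FPKM in both STAT3 shRNA libraries, against 29.4 FPKM with control. The TMD8 columns had 40.9 to 41.4 FPKM of AKT1 and 25.6 to 26.5 FPKM of AKT2, nearer to the OCI-LY10 control than to the STAT3 shRNA libraries for AKT1 but not for AKT2.

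Of 13 genes that feed AKT, 1 was lower (7.7%), 1 was higher (7.7%) and 11 were neither. The table-wide shares were 10.1% lower and 10.6% higher, so these counts do not set the list apart from other genes. PIK3R5, a regulatory subunit of PI3K gamma, had 0.169 and 0.157 FPKM with shRNA 10 and shRNA 16, against 8.06 FPKM with control. PIK3CA, a catalytic subunit, had 14.1 and 14.2 FPKM with shRNA 10 and shRNA 16, against 5.62 FPKM with control. PIK3CD, the catalytic subunit most used by B cells, was just short of the threshold at −0.98 and −0.92 on the log2 scale. PIK3CB, another catalytic subunit, differed by 0.54 and 0.41. The rest, among them the AKT kinase PDPK1 and the mTORC2 genes MTOR and RICTOR, lay between −0.72 and 0.57.

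Among 5 brakes on AKT, 4 passed the filter, with 1 lower, 2 higher and 1 neither, beside 10.1% lower and 10.6% higher over all tested genes. INPP5D, the lipid phosphatase SHIP1, had 102 and 100.2 FPKM with shRNA 10 and shRNA 16, against 24.1 FPKM with control. PIK3IP1, which inhibits the PI3K catalytic subunit, had 1.97 and 2.34 FPKM with shRNA 10 and shRNA 16, against 0.368 FPKM with control. PHLPP1, a phosphatase that removes phosphate from AKT, had 5.19 and 3.95 FPKM with shRNA 10 and shRNA 16, against 11.9 FPKM with control. Its paralog PHLPP2 was past the threshold with shRNA 10 only, with 3.68 and 2.92 FPKM with shRNA 10 and shRNA 16, against 1.12 FPKM with control. INPP4B did not pass the filter, with 0.0123 FPKM with shRNA 10 and 0 with shRNA 16, against 2.58 FPKM with control. With no filter, 2 brakes were lower and 2 higher.

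Among AKT substrates, 12 of 13 genes passed the filter, with 1 lower, 1 higher and 10 neither. FOXO1 had 11.5 and 10.9 FPKM with shRNA 10 and shRNA 16, against 4.08 FPKM with control, and AKT1S1, which encodes PRAS40, had 23.9 and 21.7 against 49.4 FPKM. GSK3A differed by −0.50 and −0.72 and TSC2 by 1.04 and 0.91 on the log2 scale. Of these pathway genes together, 31 of 33 passed the filter, with 4 lower (12.9%), 4 higher (12.9%) and 23 neither, beside 10.1% and 10.6% of all tested genes. Their median log2 difference was 0.02 with shRNA 10 and 0.01 with shRNA 16, beside 0.06 and 0.06 over all tested genes. The pathway as a whole was therefore near the background, with single genes on either side. For 7 of the 8 called pathway genes, FOXO1 being the exception, the TMD8 median lay nearer to the OCI-LY10 control than to the mean of the STAT3 shRNA libraries on the log2 scale, beside 86.4% of all 2311 called genes and 69.4% of all tested genes.

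**Figure D4:**
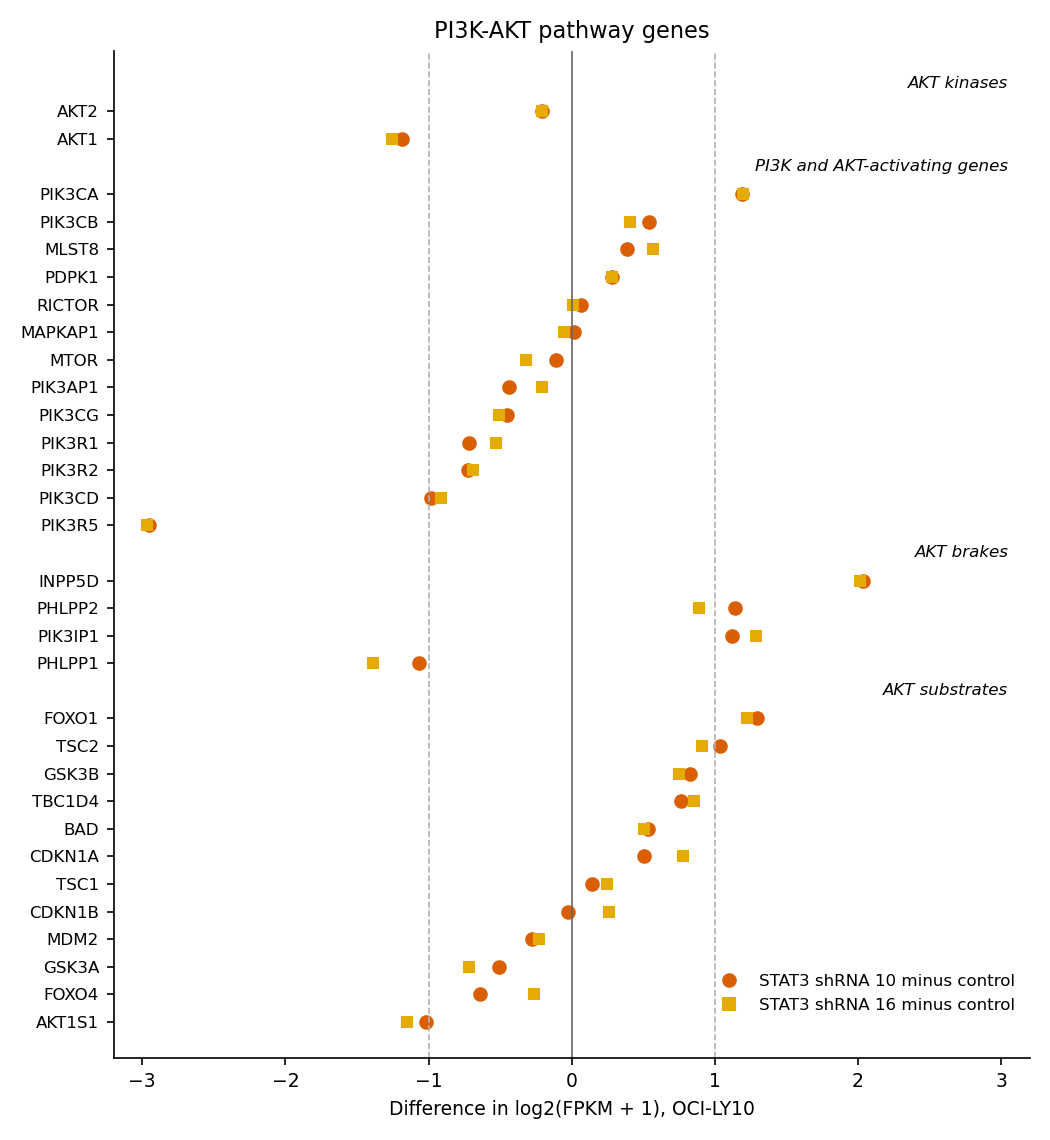
Difference in log2(FPKM + 1) between each STAT3 shRNA library and the control library (circles shRNA 10, squares shRNA 16) for the 31 tested PI3K-AKT pathway genes, with dashed lines at the 2-fold threshold. The hairpins give nearly the same value for most genes, and 23 of the 31 genes do not pass the threshold with both.

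FOXO target genes, which AKT holds down by keeping FOXO proteins out of the nucleus, had 10 of 14 members tested, 3 lower, 3 higher and 4 neither, beside 10.1% lower and 10.6% higher over all tested genes. PIK3IP1, counted above among the brakes, is also 1 of the 3 higher. BCL2L11, the pro-apoptotic BIM, had 28.5 and 25.2 FPKM with shRNA 10 and shRNA 16, against 94.8 FPKM with control. CCNG2, an atypical cyclin, had 0.920 and 1.30 FPKM with shRNA 10 and shRNA 16, against 3.81 FPKM with control. KLF2, a quiescence factor, had 7.01 and 6.29 FPKM with shRNA 10 and shRNA 16, against 0.685 FPKM with control, and IRS2, an insulin receptor adaptor, had 1.55 and 1.66 against 0.168 FPKM. The called members lay on both sides.

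TCL1A partners outside AKT, a list of proteins reported to bind TCL1A together with FOS, JUN and JUNB of the AP-1 factors it is known to affect, had 2 of 7 genes lower, 1 higher and 4 neither, beside 10.1% and 10.6% of all tested genes. ATM, the DNA damage kinase, had 10.5 and 10.6 FPKM with shRNA 10 and shRNA 16, against 3.02 FPKM with control. FOS had 0.362 and 0.231 FPKM with shRNA 10 and shRNA 16, against 7.01 FPKM with control and 0.0277 to 0.0824 FPKM in TMD8. JUN had 1.74 and 2.96 FPKM with shRNA 10 and shRNA 16, against 8.73 FPKM with control and 4.58 to 8.82 FPKM in TMD8, while the acetyltransferase gene EP300 differed by 0.40 and 0.21 on the log2 scale. The known regulators of TCL1A in B cells were close to even, with 0 of 3 lower and 0 higher. Beside table-wide shares of 10.1% lower and 10.6% higher, 3 genes are too few to set them apart from other genes. CREB1 had 7.72 and 7.56 FPKM with shRNA 10 and shRNA 16, against 8.34 FPKM with control. Its coactivator CRTC2 had 27.1 and 28.1 FPKM with shRNA 10 and shRNA 16, against 33.7 FPKM with control. SP1, whose GC box letters occur in both promoters printed above, had 19.9 and 18.4 FPKM with shRNA 10 and shRNA 16, against 15.3 FPKM with control.

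TCL1A marks early B-cell stages, so stage markers were set beside it. Of 7 naive B-cell markers, 1 was lower, 2 higher and 4 neither, where 10.1% of all tested genes were lower and 10.6% higher. CD24, a surface glycoprotein, had 0.969 and 0.896 FPKM with shRNA 10 and shRNA 16, against 187 FPKM with control. BTG1, an antiproliferative gene, had 20.9 and 22.7 FPKM with shRNA 10 and shRNA 16, against 34.1 FPKM with control. In contrast FCER2, which encodes CD23, had 17.3 and 20.9 FPKM with shRNA 10 and shRNA 16, against 0.197 FPKM with control, and BACH2, a repressor of plasma cell fate, had 13.1 and 15.0 against 0.0833 FPKM. Of 8 memory and plasma cell markers, 3 were lower (37.5%), 3 higher (37.5%) and 2 neither, against the same background. TNFRSF17, the plasma cell receptor BCMA, had 39.8 and 35.0 FPKM with shRNA 10 and shRNA 16, against 1.57 FPKM with control, and TNFRSF13B, the receptor TACI, had 187 and 209 against 50.7 FPKM. PRDM1, the plasma cell regulator BLIMP-1, had 0.685 and 0.585 FPKM with shRNA 10 and shRNA 16, against 9.39 FPKM with control, and IRF4 had 73.8 and 80.8 against 411 FPKM. The median log2 difference was 0.87 and 0.90 with shRNA 10 and shRNA 16 for the naive list and −0.42 and −0.46 for the memory and plasma cell list, beside 0.06 and 0.06 over all tested genes. With a 1.5-fold threshold, or after rescaling without small RNA genes, 4 naive markers were higher and 1 lower. The whole-table count of higher genes rose as well, from 1180 to 2248 at 1.5-fold and to 1606 after rescaling. That of lower genes went from 1131 to 1920 at 1.5-fold and to 1149 after rescaling. The 4 higher markers are therefore not to be read against the 2-fold share of 10.6%.

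Markers of B cells and of other cell types were read in the same libraries. Of 6 B-cell markers, all tested, 4 were higher (66.7%), 1 lower (16.7%) and 1 neither, beside 10.6% and 10.1% of all tested genes, and their summed level was 2363 and 2620 FPKM with shRNA 10 and shRNA 16, against 832 FPKM with control and 800 to 955 FPKM in TMD8. BLK, a B-cell tyrosine kinase, had 87.9 and 93.5 FPKM with shRNA 10 and shRNA 16, against 4.94 FPKM with control. CD79B, a chain of the B-cell receptor complex, had 1139 and 1226 FPKM with shRNA 10 and shRNA 16, against 226 FPKM with control. CD22, an inhibitory receptor, had 23.0 and 29.3 FPKM with shRNA 10 and shRNA 16, against 62.1 FPKM with control. PAX5, the B-lineage factor, was near even at 88.1 and 92.2 FPKM with shRNA 10 and shRNA 16, against 72.3 FPKM with control. Transcripts of all 6 markers were thus present in every library, at levels that differed at least 2-fold for 5 of the 6. Of 7 T and NK cell markers 1 passed the filter, CD247, with 25.3 and 27.3 FPKM in shRNA 10 and shRNA 16, against 0.839 FPKM in control. The other 6 had at most 0.374 FPKM in any column, and CD3D and CD2 were listed at 0 in all 6 columns. None of 7 myeloid markers passed (0 genes), their summed level being 0.980 and 0.619 FPKM with shRNA 10 and shRNA 16, against 1.60 FPKM with control, and MPO, S100A8 and S100A9 were listed at 0 in every column. Of 6 epithelial and stromal markers 4 passed, with 1 lower, 2 higher and 1 neither, beside the same shares of all tested genes. Their sums were 10.9 and 12.1 FPKM with shRNA 10 and shRNA 16, against 6.39 FPKM with control. EPCAM had 4.39 FPKM in both STAT3 shRNA libraries and was listed at 0 in control and in TMD8. PECAM1 had 5.43 and 6.05 FPKM with shRNA 10 and shRNA 16, against 0.109 FPKM with control. COL1A1 went the other way, with 0.00823 FPKM with shRNA 10 and 0 with shRNA 16, against 3.60 FPKM with control. KRT8, called neither, had 0.740 and 1.17 FPKM against 1.96 FPKM. Plasmacytoid dendritic cells are another cell type known for TCL1A. Of their 5 markers 3 passed, with 2 lower and 1 higher, beside 10.1% and 10.6% of all tested genes. Their summed level was 103 and 202 FPKM with shRNA 10 and shRNA 16, against 276 FPKM with control. The receptor gene LILRA4 had 91.0 and 186 FPKM with shRNA 10 and shRNA 16, against 1.48 FPKM with control, GZMB had 9.39 and 11.8 against 264 FPKM, and IL3RA was listed at 0 in every column. Their part in the TCL1A and TCL1B values was not tested.

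The genes most like the pair were sought over the 6 columns, as the smallest Euclidean distance in log2(FPKM + 1) among 23106 genes. TCL1A and TCL1B were each other's nearest gene, at a distance of 1.18. For TCL1A the next were S100A4 at 3.32, CD24 at 3.44, VIM at 3.77 and GSTP1 at 4.42. For TCL1B the next were S100A4 at 2.38, CD24 at 2.70, VIM at 2.98 and S100A6 at 3.99. S100A4, a calcium-binding protein gene, had 1.38 and 1.47 FPKM with shRNA 10 and shRNA 16, against 90.3 FPKM with control and 288 to 347 FPKM in TMD8. VIM, which encodes vimentin, had 0.0731 and 0.1001 FPKM with shRNA 10 and shRNA 16, against 185 FPKM with control and 105 to 179 FPKM in TMD8. GSTP1, a glutathione S-transferase gene, kept 8.25 and 8.04 FPKM with shRNA 10 and shRNA 16, against 397 FPKM with control. The distance is a description over 6 columns that hold only 3 kinds of level. The OCI-LY10 columns among them are those on which both members were chosen, so the nearness of TCL1A and TCL1B is partly set by that choice. CD24 has near-identical copies elsewhere in the genome, which makes its values uncertain.

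**Figure D5:**
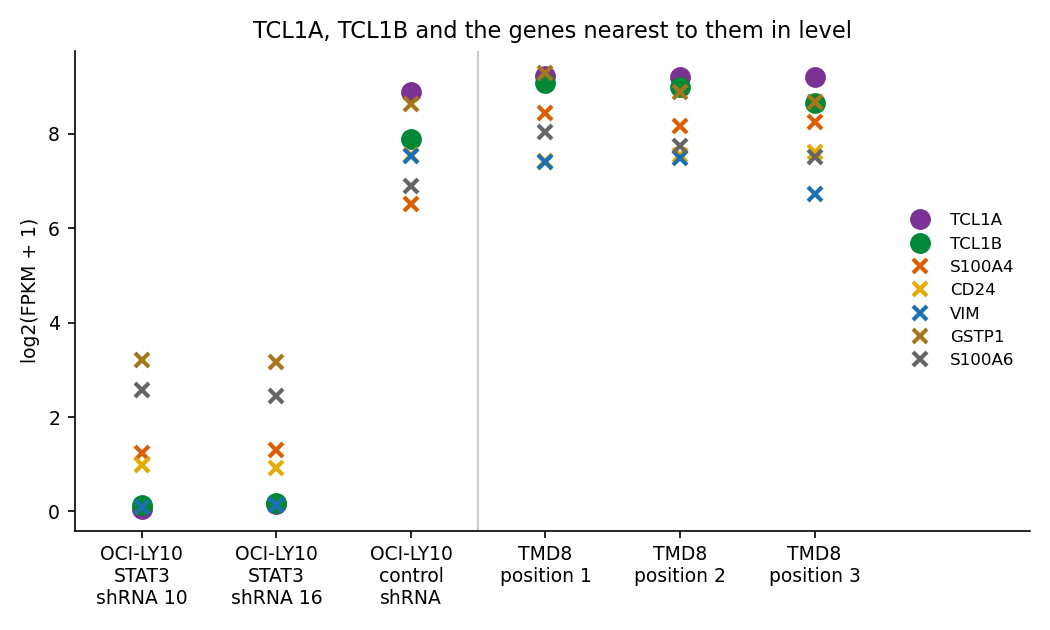
log2(FPKM + 1) of TCL1A and TCL1B (circles) and of the genes nearest to them over the 6 columns (crosses), in the 3 OCI-LY10 libraries and the 3 TMD8 positions. All 7 genes are high in the OCI-LY10 control and in TMD8, and in the STAT3 shRNA libraries TCL1A, TCL1B and VIM reach the floor while GSTP1 and S100A6 stay above it.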

How the data were processed

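RNA-seq of 3 OCI-LY10 and 3 TMD8 libraries was analysed, prepared with an Illumina TruSeq kit per the labels' protocols. The authors deposited FPKM values, 1 per gene and library, for 25277 rows. TopHat, Bowtie2 and build hg19 are named, without roles or versions, per the submitters' processing notes. For the FPKM calculation, the tool, gene annotation and strand setting were not given in the sources used here. OCI-LY10 columns were matched to samples by name. The 3 TMD8 columns have no names and entered no comparison between hairpins. Rows of 2 repeated symbols were summed.

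From these, log2(FPKM + 1) differences were computed (Python 3.11.15, pandas 2.3.3, numpy 2.4.6). A gene was called when it was 2-fold or more away from control in the same direction with both STAT3 shRNAs, among 11162 genes averaging 1 FPKM or more in OCI-LY10. There is 1 library per hairpin, so no p-value is given, and separate cultures are not described. Relative depth came from the commonest ratio of values under 0.1 FPKM, 1168 for the control and 1361 for shRNA 16. Small RNA genes (2075) were left out of ranks and likeness, because their share differs between libraries. The calls and distances were checked on simulated data. Named were both members, STAT3 and up to 4 genes per list. These 4 had the 2 highest and 2 lowest differences of the hairpin nearer to 0. The 5 table genes on each side of the pair and the 5 most alike were also named. Others were named after their values were seen (TYROBP, CMC4, PDPK1, MTOR, RICTOR, INPP4B, IL3RA, CD3D, CD2 and the 3 myeloid genes at 0). Some genes of the lists are not reported here and enter no list count. Members and all 15 lists were chosen with earlier results of these data known. Neighbour order and promoters are from RefSeq. Alternatives covered the pseudocount, scaling, filter, threshold and each hairpin alone.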

Additional observations from a re-analysis of the deposited data

Results flagged for a closer look

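TCL1A had a lowest value of 590 FPKM (589.54) over the 3 TMD8 columns and TCL1B a lowest value of 400 FPKM (399.744). Both were singled out because these columns bear no hairpin names and enter no comparison between hairpins, yet every one of them exceeds the OCI-LY10 control library, at 474 FPKM for TCL1A and 237 FPKM for TCL1B. The tables were normalized separately.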

How the results depend on the processing

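TCL1A and TCL1B were called lower under each of the 11 alternatives, 2 of which use 1 hairpin alone. Both were chosen on this contrast and every alternative uses the same control library, so these calls are no independent support. Their log2 differences were recomputed for the pseudocounts, scalings and single hairpins. The mean log2 difference was −8.79 for TCL1A and −7.74 for TCL1B. With 0.1 FPKM added in place of 1 it was −11.44 and −10.11, and with 5 FPKM −6.56 and −5.57, a shift made by the added value itself. Rescaled to an equal total without small RNA genes it was −9.39 and −8.30, a scaling that moved the median of all tested genes to 0.20, and with median-of-ratios scaling TCL1B was at −7.78. The counts of genes lower and higher over the whole table, 1131 and 1180, became 613 and 541 with 5 FPKM added, 1920 and 2248 at 1.5-fold and 466 and 311 at 4-fold, and 614 were lower with a filter at 5 FPKM. Pathway genes lower and higher, 4 and 4, became 2 and 1 with 5 FPKM added and 1 and 1 at 4-fold. At 1.5-fold 6 pathway genes were lower and 8 higher. Stricter or looser limits select fewer or more genes by construction. Of 330 list counts under other settings, 285 were within 1.5 times the reported count and 45 were not. Over the OCI-LY10 libraries alone, 3 of the 5 genes most like each member remained. No paired analysis was possible because each hairpin has 1 library and the result comes from no test. Leaving out the control library leaves no contrast. Depth limits the STAT3 shRNA values of both genes, whose order is not resolved.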
